A study of Saccharomyces cerevisiae with 12 samples.

Results

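The ADE genes encode the enzymes that build purine nucleotides from simple precursors in budding yeast (Saccharomyces cerevisiae). The 10 genes described here are ADE1, ADE2, ADE3, ADE4, ADE6, ADE8, ADE12, ADE13, ADE16 and ADE17, taken by name from a table of 7033 usable features. ADE5,7 was left out, because the comma in its symbol shifts its values by a field in the table. RNA was sequenced from 12 libraries of the strain W303, mating type a, 3 for each of 4 plasmids. Every strain carried a mutant allele of LEU2 and the alleles his3-11,15, trp1-1, can1-100 and ade2-1, held OsTIR1 under the ADH1 promoter at ura3-1 (URA3 marker), and had an auxin degron and 6FLAG tag with HYG on the chromosomal SCC2 (SCC2-AID*-6FLAG-HYG). Scc2 is the protein that, with Scc4, puts cohesin rings on chromosomes, and OsTIR1 is a plant protein that marks degron-tagged proteins for destruction when auxin is present. The plasmid, a pRS413 with a HIS marker, held SCC2-7MYC (called WT here), scc2-R787G-7MYC (R787G), scc2-G1242V-7MYC (G1242V) or no insert (NULL in the labels, empty vector here). Cells were grown in SD-HIS, and 1 mM auxin was added for 3 h after 90 min of growth, a design in which the chromosomal Scc2 is degraded and the plasmid is left to supply the protein; Scc2 protein levels were not measured in these data, and no library without auxin was analysed here. The ade2-1 allele is a nonsense mutation of 1 of the 10 genes and is shared by all 4 groups, and how much adenine the medium held is not given in the sources used here.

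As background, de novo purine synthesis starts from PRPP, an activated ribose, and assembles the purine ring on it stepwise to IMP, from which separate branches lead to AMP and GMP. In yeast the transcription factors Bas1 and Pho2 act together to switch the ADE genes on when adenine is scarce, and extracellular adenine turns them down. The same pair acts on some genes of histidine and one-carbon metabolism, and Gcn4, the activator of amino acid synthesis, binds a closely related DNA sequence.

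The upstream sequences show what most of these genes share. TGACTC, the core sequence bound by Bas1, was searched on both strands in the 300 bases before each start codon in the R64 reference genome of S288C, with RefSeq's annotation; R64 is the assembly that sacCer3, the build named in the submitters' processing notes, stands for, and the W303 sequence itself may differ. It occurred before 8 of the 10 ADE genes, against 466 of 6001 protein-coding genes (7.77%) with a full window. ADE1, ADE2 and ADE8 held it more than once, as did 39 of the 6001 (0.65%). The 10 genes were listed as ADE genes of the Bas1 and Pho2 regulon, so their shares are not an independent result. ADE4 and ADE16 had no match. Only ADE12 had the match as part of TGACTCA, the longer form bound by Gcn4, which contains it. The 4 windows printed here are those of ADE3, ADE17 and ADE4, the genes with the smallest p-values among the differences given later, and of ADE16, the paralog of ADE17; capitals mark TGACTC, which ADE4 and ADE16 lack.
ADE17 (chrXIII:509281-509580, minus strand): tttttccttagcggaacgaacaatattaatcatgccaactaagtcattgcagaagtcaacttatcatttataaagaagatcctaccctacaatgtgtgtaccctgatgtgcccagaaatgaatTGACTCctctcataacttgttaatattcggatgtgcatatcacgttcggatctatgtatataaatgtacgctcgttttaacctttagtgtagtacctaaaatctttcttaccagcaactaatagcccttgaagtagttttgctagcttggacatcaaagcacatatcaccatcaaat
ADE16 (chrXII:201316-201615, minus strand): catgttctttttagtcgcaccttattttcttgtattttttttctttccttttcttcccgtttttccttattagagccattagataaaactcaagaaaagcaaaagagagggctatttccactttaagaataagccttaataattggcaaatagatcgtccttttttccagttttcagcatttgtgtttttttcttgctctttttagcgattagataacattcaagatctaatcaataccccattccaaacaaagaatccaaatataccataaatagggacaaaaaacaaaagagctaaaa
ADE4 (chrXIII:867092-867391, minus strand): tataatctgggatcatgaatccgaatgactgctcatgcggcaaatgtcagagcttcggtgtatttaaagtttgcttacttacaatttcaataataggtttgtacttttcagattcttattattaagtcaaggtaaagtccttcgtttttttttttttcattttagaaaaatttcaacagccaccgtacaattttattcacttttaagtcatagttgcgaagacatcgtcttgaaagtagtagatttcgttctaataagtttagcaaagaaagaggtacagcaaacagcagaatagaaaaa
ADE3 (chrVII:905634-905933, plus strand): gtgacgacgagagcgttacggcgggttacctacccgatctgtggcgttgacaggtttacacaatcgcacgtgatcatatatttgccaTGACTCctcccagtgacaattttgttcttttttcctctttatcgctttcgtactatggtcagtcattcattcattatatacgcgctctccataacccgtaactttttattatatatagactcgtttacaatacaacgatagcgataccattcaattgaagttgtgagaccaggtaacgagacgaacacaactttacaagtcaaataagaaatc
In ADE17 the match begins 177 bases before the start codon and in ADE3 213 bases before it. A match in these letters is a description and does not show that a factor binds there.

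Each gene has 1 uninterrupted coding exon. ADE16 (YLR028C, chromosome XII, 199540 to 201315) and ADE17 (YMR120C, chromosome XIII, 507502 to 509280) encode a pair of similar enzymes, and their coding sequences matched at 1329 of 1776 aligned bases (74.8%). Their longest identical stretch was 19 bases, aacaaaagagaaacgatgc, at coding positions 1157 to 1175 in both genes. The libraries were read as 50 bp single reads, and no window of 50 bases in any of the 10 coding sequences occurred a second time in the reference genome, so reads of ADE16 and ADE17 can be told apart where they match exactly.

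Levels are given as scaled TPM: the deposited TPM, an abundance per transcript length within a fixed total per library, divided by a per-library factor (0.904 to 1.19) that lines up the bulk of genes. Because read counts cannot be had from TPM, the sequencing depth is unknown and counting intervals are not given. Marker genes of mating type a were present in all libraries (STE2, the alpha-factor receptor, at 108 to 125). MF(ALPHA)2, a pheromone gene of the other mating type, was at 0 to 1.11. RNA of the other alpha markers was not absent: SAG1 was at 22.2 to 30.6, STE3 at 4.93 to 6.47 and MF(ALPHA)1 at a mean of 9.30. SAG1 lay above the a markers BAR1 (9.79 to 20.7) and ASG7 (9.57 to 14.9). It lay below the remaining a markers, of which STE6 (42.5 to 47.5) was the lowest. SCC2 RNA, which sums the tagged chromosomal copy and the plasmid copy, was at 109 to 128 in WT, 86.5 to 99.6 in R787G and 12.1 to 12.8 in the empty vector. HIS3, the other gene that checks the plasmid, was at 796 to 900.0 in WT, 872 to 1353 in R787G and 2423 to 3500.2 in the empty vector. In libraries 1, 2 and 3 labelled G1242V it was at 2498, 1042 and 2779.8. The part of this difference in the ADE values was not tested. The libraries labelled G1242V did not match each other: SCC2 was at 51.2, 93.2 and 12.4 in libraries 1, 2 and 3, the last being within the empty vector range, and the differences described for this group are therefore also given with library 2 as its only library, which leaves the fit to assume that it varies like the other groups. The labels mention duplicate cultures for the empty vector, while 3 libraries were deposited. If libraries shared a culture, p-values measure only the spread between libraries.

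The 10 genes were expressed at steady levels in all 12 libraries. Over the libraries the highest value of a gene exceeded its lowest by 1.11-fold (ADE13) to 1.48-fold (ADE17). The SD over the 12 libraries was 0.05 to 0.17 on the log2 scale, against a median of 0.14 over all 6097 features tested, and it was below that of the median feature for 8 of the 10 genes. Those features reach down to a mean of 1 TPM, and they were not matched to the ADE genes by level. The ordering of the levels was ADE12 (mean 292 scaled TPM, range 241 to 324), ADE3 (236, 205 to 283), ADE13 (141, 133 to 148), ADE17 (132, 108 to 160.0), ADE1 (125, 107 to 152), ADE16 (123, 113 to 137), ADE8 (94.3, 86.8 to 104), ADE6 (85.6, 78.3 to 95.3), ADE4 (65.2, 57.2 to 71.4) and ADE2 (30.8, 26.3 to 37.7). The ranges of ADE3 and ADE13, of ADE16 and ADE8, of ADE6 and ADE4, and of ADE4 and ADE2 were apart, while those of other neighbours overlapped. ADE2, the gene that carries the nonsense allele in every strain, was the lowest in all 12 libraries.

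**Figure D1:**
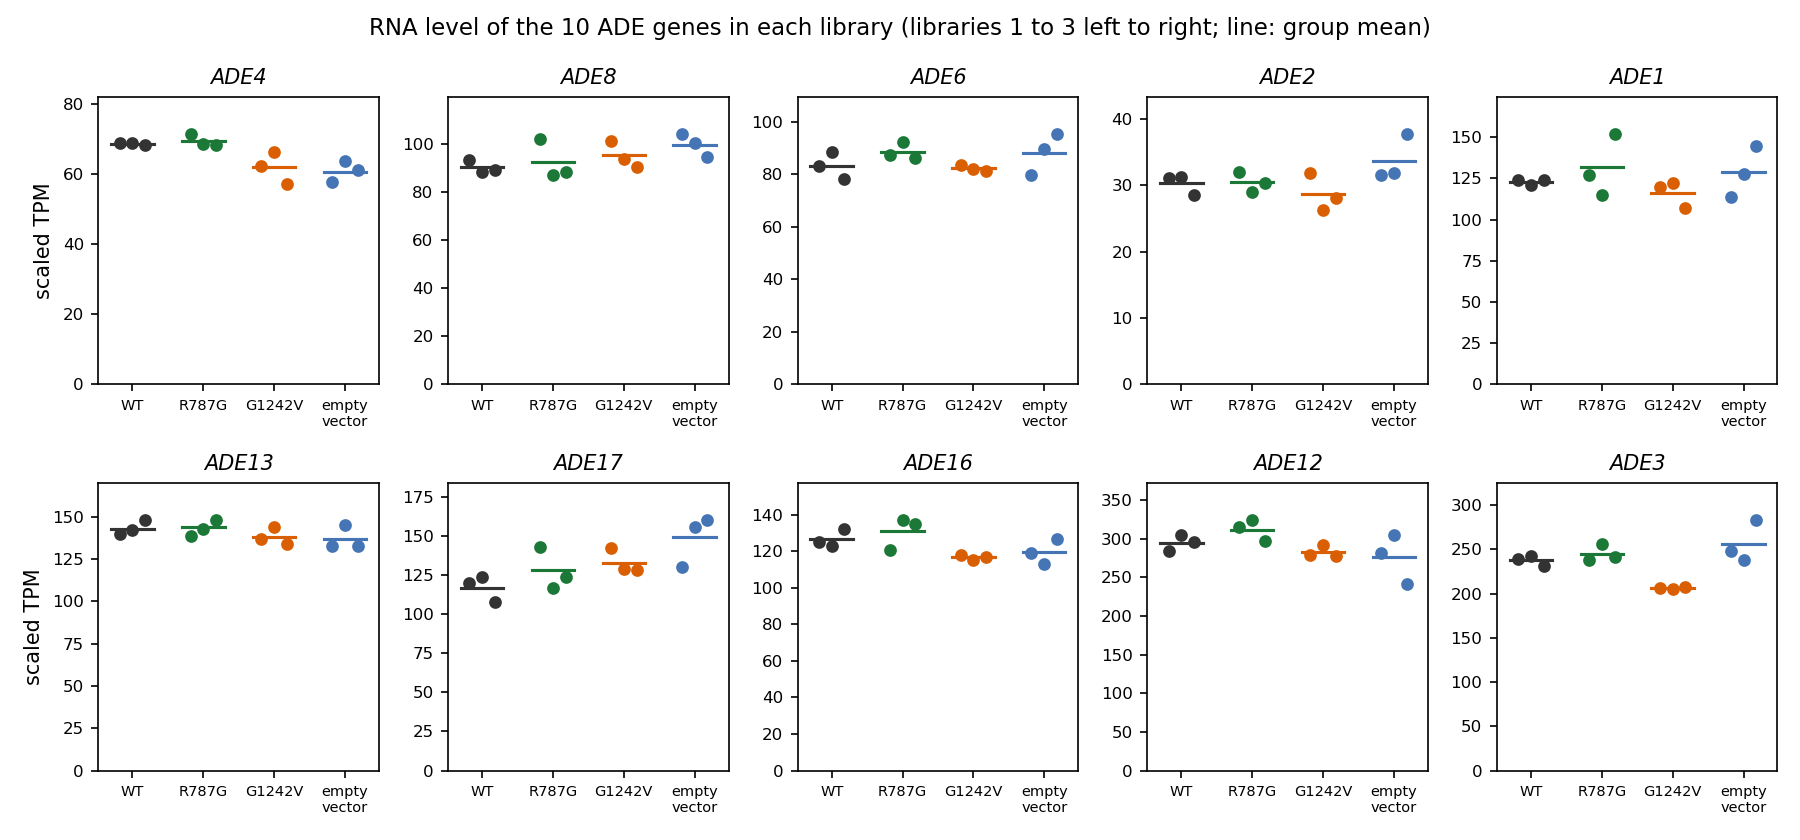
Scaled TPM (y axis, from 0) of each ADE gene in the 4 plasmid groups (x axis); each point is 1 library and each line is the mean of 3. ADE3 lies at 205 to 208 in the libraries labelled G1242V, under all other libraries, and ADE17 at 129.9 to 160.0 in the empty vector, above WT.

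No ADE gene was called in any comparison. Groups were compared with limma on log2(scaled TPM + 1), all 12 libraries and 6097 features in 1 fit, and a gene was called at a Benjamini-Hochberg adjusted p under 0.05. Of the 60 tests, 10 genes in 6 comparisons, limma called 0, and 10 had an unadjusted p under 0.05. The smallest adjusted p was 0.0778. The largest difference was 0.34 on the log2 scale, and the 95% intervals of the 60 differences, each for its own gene, ran from 0.726-fold to 1.47-fold. A p that misses the threshold does not show that 2 groups have the same level, and these intervals give the size of change that the data leave room for.

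In the empty vector against WT, which compares cells with no SCC2 on the plasmid with cells that have it, 0 of 10 ADE genes were called, against 2.64% of all features. Unadjusted p was under 0.05 for ADE4 and ADE17 (28.7% of all features), and the groups did not overlap at 4 of the 10 genes (35.7% of all features). The median log2 fold change of the ADE genes was 0.07, and that of all features was -0.01. Of the 10 genes 6 lay above WT and 4 below.

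ADE4 encodes the amidotransferase of the first step, the enzyme that commits PRPP to purines. It was at 68.7, 68.9 and 68.3 scaled TPM in WT, 71.4, 68.5 and 68.2 in R787G, 62.3, 66.3 and 57.2 in G1242V, and 57.6, 63.6 and 61.0 in the empty vector. WT and R787G were close together and lay above every library of the other groups. The log2 fold change was -0.17 in the empty vector against WT (SE 0.06, 95% interval -0.31 to -0.04, limma adjusted p = 0.102) and -0.15 in G1242V against WT (SE 0.06, interval -0.28 to -0.02, adjusted p = 0.15). Without libraries 1 and 3 labelled G1242V the latter was -0.05, and with library 3 alone left out it was -0.09. R787G against the empty vector gave 0.19 (interval 0.06 to 0.32, limma adjusted p = 0.11), and R787G against G1242V gave 0.16 (adjusted p = 0.19; 0.06 with library 2 alone).

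ADE8 and ADE6 encode enzymes of ring assembly that follow, GAR transformylase and FGAM synthetase. ADE8 was at 93.3, 88.3 and 89.0 in WT, 102, 86.8 and 88.3 in R787G, 101, 93.6 and 90.5 in G1242V, and 104, 100.3 and 94.3 in the empty vector. The empty vector libraries lay above WT without overlap (log2 fold change 0.14, interval -0.02 to 0.30, limma adjusted p = 0.225), and the other groups overlapped WT. ADE6 was at 83.2, 88.3 and 78.3 in WT, 87.5, 92.2 and 86.0 in R787G, 83.4, 81.8 and 81.3 in G1242V, and 79.8, 89.6 and 95.3 in the empty vector. No group was apart from WT there, and R787G lay above G1242V in every library (0.11, interval -0.05 to 0.26, limma adjusted p = 0.402; 0.11 with library 2 alone).

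ADE2 and ADE1 encode the next enzymes, AIR carboxylase and SAICAR synthetase; loss of ADE2 is known for the red pigment that yeast colonies then form. ADE2 was at 31.1, 31.3 and 28.5 in WT, 32.0, 28.9 and 30.3 in R787G, 31.8, 26.3 and 28.1 in G1242V, and 31.5, 31.8 and 37.7 in the empty vector. The empty vector was above WT in each library by little except in library 3, and the log2 fold change was 0.14 (interval -0.04 to 0.33, limma adjusted p = 0.285). G1242V against the empty vector gave -0.22 (interval -0.41 to -0.03, limma adjusted p = 0.21), with overlapping groups, and -0.34 with library 2 alone, which holds the lowest level of ADE2. ADE1 was at 124, 121 and 124 in WT, 127, 115 and 152 in R787G, 119.9, 122 and 107 in G1242V, and 114, 128 and 145 in the empty vector. Its groups overlapped in all 6 comparisons, and its SE of 0.11 was the largest among the 10 genes.

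ADE13 encodes adenylosuccinate lyase, which acts both in ring assembly and in the AMP branch. It had the smallest spread of the 10 genes: 139.7, 142 and 148 in WT, 139, 143 and 148 in R787G, 137, 144 and 134 in G1242V, and 133, 145 and 133 in the empty vector. The groups overlapped in all 6 comparisons. Its interval in the empty vector against WT ran from -0.19 to 0.06, and in R787G against WT from -0.12 to 0.13.

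ADE17 and ADE16 encode isozymes of AICAR transformylase and IMP cyclohydrolase, the last steps to IMP. ADE17 was at 119.7, 124 and 108 in WT, 143, 117 and 124 in R787G, 142, 129 and 128 in G1242V, and 129.9, 156 and 160.0 in the empty vector. All empty vector and all G1242V libraries lay above all WT libraries, while R787G overlapped WT. The log2 fold change of ADE17 in the empty vector against WT was 0.34 (SE 0.10, interval 0.12 to 0.55, limma adjusted p = 0.0778), the largest of the 60; without empty vector library 3 it was 0.28. ADE16 was at 125, 123 and 132 in WT, 121, 137 and 135 in R787G, 118, 115 and 117 in G1242V, and 119, 113 and 127 in the empty vector. The ADE16 levels of the empty vector and WT overlapped (-0.08, interval -0.22 to 0.06, limma adjusted p = 0.437), and G1242V lay below WT in each library (-0.12, interval -0.26 to 0.03, adjusted p = 0.27; -0.13 with library 2 alone). For ADE17 G1242V against WT gave 0.18 (interval -0.04 to 0.40, limma adjusted p = 0.266), and 0.14 with library 2 alone. R787G against G1242V gave 0.16 for ADE16 (interval 0.02 to 0.31, limma adjusted p = 0.212; 0.18 with library 2 alone).

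The ratio of the paralogs, ADE17 over ADE16, was looked at after these values were seen and is given without a test. It was 0.960, 1.01 and 0.820 in WT, 1.18, 0.858 and 0.922 in R787G, 1.20, 1.12 and 1.09 in G1242V, and 1.09, 1.39 and 1.26 in the empty vector. ADE17 was thus the more abundant of the pair in every library of G1242V and the empty vector, and in 1 library of R787G and 1 of WT. The sum of both was 244 ± 3.82 scaled TPM in WT, 259 ± 5.05 in R787G, 249 ± 9.10 in G1242V and 269 ± 19.2 in the empty vector (SD, n = 3).

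ADE12 encodes adenylosuccinate synthase, the first enzyme of the AMP branch. It was at 284, 305 and 296 in WT, 315, 324 and 297 in R787G, 279, 292 and 278 in G1242V, and 282, 305 and 241 in the empty vector. WT and the empty vector overlapped, with library 3 of the latter the lowest of all 12 (-0.10, interval -0.28 to 0.08, limma adjusted p = 0.437). R787G was above G1242V in every library (0.14, interval -0.04 to 0.32, limma adjusted p = 0.357; 0.09 with library 2 alone).

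ADE3 encodes the cytoplasmic C1-tetrahydrofolate synthase, which supplies the formyl groups that the transformylases of the pathway put into the ring. It was at 239, 243 and 231 in WT, 238, 256 and 242 in R787G, 206, 205 and 208 in G1242V, and 248, 238 and 283 in the empty vector. The libraries labelled G1242V were close to each other and below every other library. Their SCC2 levels differed, and the relation of ADE3 to SCC2 was not tested. The log2 fold change of ADE3 in G1242V was -0.20 against WT (SE 0.07, interval -0.36 to -0.05, limma adjusted p = 0.106) and -0.31 against the empty vector (interval -0.46 to -0.15, adjusted p = 0.101). R787G against G1242V gave 0.25 (interval 0.09 to 0.40, limma adjusted p = 0.13). These 3 comparisons share the G1242V libraries. Library 2 alone gave -0.21 against WT, -0.32 against the empty vector and 0.25 in R787G against G1242V. The limma call against WT was reached when only the 2 groups were fitted (-0.21, adjusted p = 0.0373) or without empty vector library 3 (-0.21, adjusted p = 0.0486). More features were called in general there: 829 in the former fit and 414 in the latter, against 279 in the fit reported. Over all alternatives the adjusted p of ADE3 in G1242V against WT ran from 0.0373 to 0.733.

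**Figure D2:**
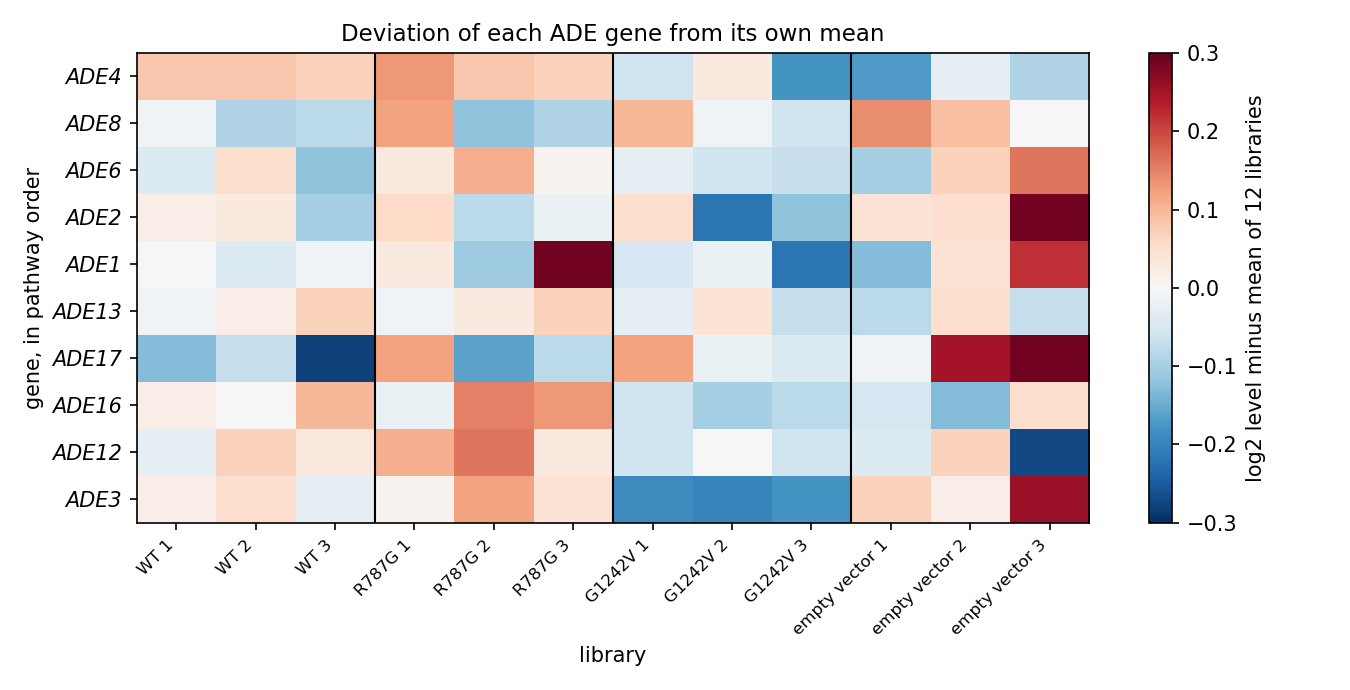
Deviation of each ADE gene (rows, in pathway order) from its own mean over 12 libraries, on the log2 scale (colour), in each library (columns). Empty vector library 3 holds the highest value of ADE2, ADE3, ADE6 and ADE17 and the lowest of ADE12, and the row of ADE3 is low in the 3 libraries labelled G1242V.

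R787G against WT compares plasmids that differ by this amino acid change, but the groups also differed in SCC2 RNA (86.5 to 99.6 against 109 to 128). The part of that difference was not tested. In this comparison 0 of 10 ADE genes were called by limma, and 0 had an unadjusted p under 0.05. Of all features 0% were called and 6.87% had an unadjusted p under 0.05. For all 10 genes the groups overlapped (for 13.1% of all features they did not). The log2 fold changes ran from 0.00 to 0.12 with a median of 0.05, against 0.00 for all features, and the 10 intervals ran from 0.881-fold to 1.27-fold. With TPM as deposited the median of the ADE genes was -0.01 and that of all features -0.05.

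In G1242V against WT 0 of 10 genes were called by limma, against 4.58% of all features, with 2 at an unadjusted p under 0.05 (26.9% of all features). The groups did not overlap at ADE3, ADE4, ADE16 and ADE17 (40.4% of all features). The median was -0.07, against 0.01 for all features. By library the median of the 10 genes relative to the WT mean was -0.05, -0.02 and -0.10 in libraries 1, 2 and 3, and without libraries 1 and 3 the comparison gave a median of -0.02.

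**Figure D3:**
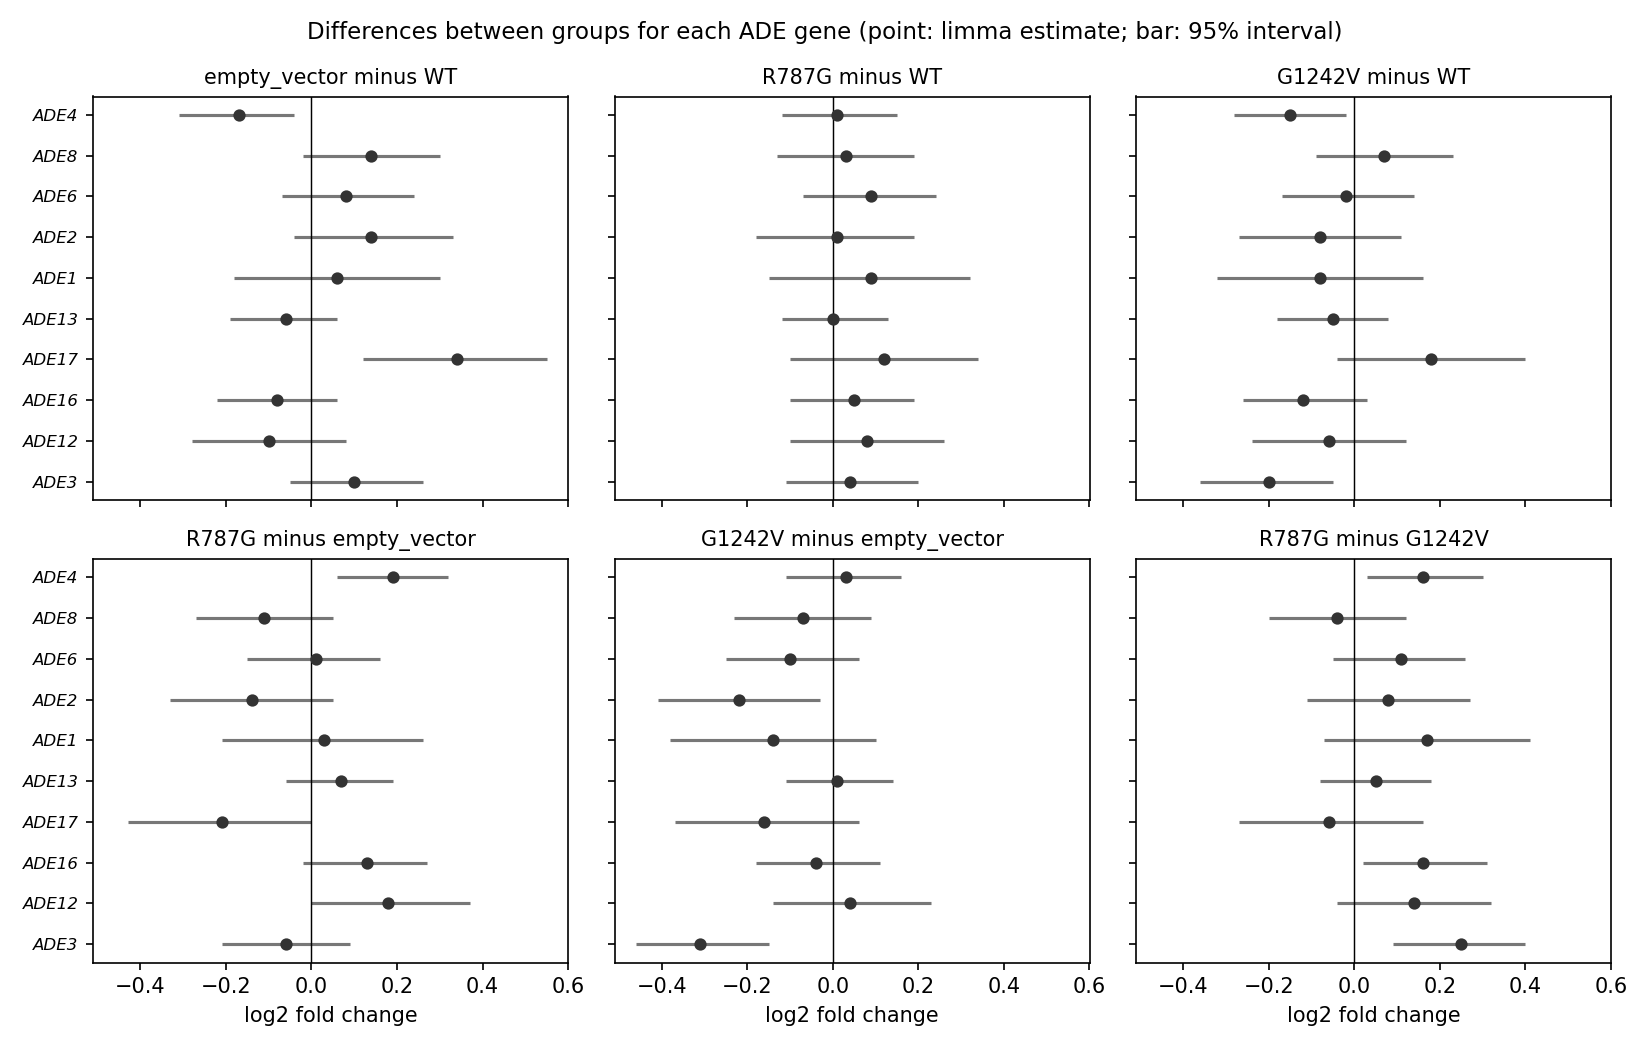
Log2 fold change (x axis) of each ADE gene (y axis, in pathway order) in the 6 comparisons; points are limma estimates from 3 libraries a group and bars are 95% intervals. The estimates lie between -0.31 and 0.34, and 10 of the 60 bars leave out 0, while no gene passes the adjusted threshold.

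The remaining comparisons test the mutants directly against the empty vector and against each other. In R787G against the empty vector 0 of 10 were called by limma (2.36% of all features), 1 had an unadjusted p under 0.05 (23.1%), and only ADE4 did not overlap (23.8%). In G1242V against the empty vector 0 were called (0.148%), 2 had an unadjusted p under 0.05 (18.5%), and only ADE3 did not overlap (26.1%). In R787G against G1242V 0 were called (0%), 3 had an unadjusted p under 0.05 (20.1%), and 5 did not overlap, all higher in R787G (11% of all features were apart in that direction and 23.5% in either). Those 5 were ADE3, ADE4, ADE6, ADE12 and ADE16. The median there was 0.12, against 0.00 for all features, and 0.09 with library 2 as the only library of G1242V.

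The empty vector libraries were unequal in a way that touches several of these values. Library 3 had the largest scaling factor (1.19), the lowest level of SCR1 RNA (59542 scaled TPM, against 106172 to 171399 in the other 11 libraries), and the extreme value of 5 of the 10 ADE genes. The share of all features with their extreme value in that library was not computed. By library the median of the ADE genes relative to the WT mean was -0.06, 0.05 and 0.13 in empty vector libraries 1, 2 and 3. Without library 3 the median of the empty vector against WT went from 0.07 to 0.01. The 25S ribosomal RNA RDN25-1, which the library protocol depletes, was at 582 to 979.8 in WT and at 54.1 to 217 in all other libraries. The part of either in the ADE values was not tested.

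The regulators of the pathway were not called in any of the 6 comparisons. BAS1 was at 54.8, 56.0 and 49.3 scaled TPM in WT, 56.7, 49.1 and 48.1 in R787G, 53.7, 46.6 and 49.3 in G1242V, and 56.4, 61.6 and 63.4 in the empty vector, whose libraries were the highest but for 1 of R787G. For BAS1 the empty vector against WT gave 0.18 (interval 0.00 to 0.36, limma adjusted p = 0.179), without overlap. Against the empty vector, BAS1 was at -0.27 in G1242V (interval -0.45 to -0.09, limma adjusted p = 0.149), without overlap. It was at -0.24 in R787G (interval -0.42 to -0.06, limma adjusted p = 0.136), with overlap. PHO2 was at 38.2 to 40.0 in WT and 41.8 to 48.8 in the empty vector, apart by a small margin (0.18, interval 0.03 to 0.33, limma adjusted p = 0.123). GCN4 was at 906 to 1138 in WT and 1009 to 1081 in the empty vector (0.05, interval -0.19 to 0.29, limma adjusted p = 0.787); its activity is set largely by translation, which RNA levels do not show.

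Among 9 other targets of Bas1 and Pho2, 1 rose in the empty vector against WT and none fell, where 2.64% of all features were called. It was HIS4, of histidine synthesis, at 273, 304 and 264 in WT and 329, 451 and 391 in the empty vector (0.46, SE 0.11, limma adjusted p = 0.0491), a call kept in 7 of 23 alternatives. The list's median there was 0.00, and in the other 5 comparisons no member was called. The 6 histidine genes other than the plasmid marker, 3 of which also stand among those 9, held the same single call. Their median in the empty vector against WT was 0.16, against -0.01 for all features. HIS1 (0.38, limma adjusted p = 0.0738) and HIS2 (0.18, adjusted p = 0.0953) also lay above WT without overlap. HIS5, HIS6 and HIS7 overlapped WT.

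The GMP branch draws on the same IMP as ADE12. IMP dehydrogenase, encoded by the IMD genes, and GMP synthase, encoded by GUA1, turn IMP into GMP. Of 6 tested members 1 fell in the empty vector against WT (2.64% of all features were called), with a list median of -0.35. It was IMD4, at 28.6, 28.5 and 27.5 in WT, 26.3, 30.5 and 25.5 in R787G, 22.0, 27.4 and 21.1 in G1242V, and 18.8, 21.1 and 19.4 in the empty vector (-0.49, SE 0.10, limma adjusted p = 0.0446). In G1242V against WT 2 of 6 fell (4.58% of all features were called), with a median of -0.32: GUA1 from 122 ± 6.28 to 86.9 ± 5.45 (-0.48, SE 0.07, limma adjusted p = 0.0116) and IMD3 from 68.6 ± 3.17 to 52.5 ± 6.19 (-0.39, SE 0.09, adjusted p = 0.0393; SD, n = 3). With library 2 alone, neither was called, and the values were -0.43 for GUA1 (adjusted p = 0.33 by limma) and -0.21 for IMD3 (adjusted p = 0.733). GUA1 was at 90.2, 90.0 and 80.7 in the libraries labelled G1242V, below every library of WT and R787G. In the empty vector GUA1 was at 96.3, 93.9 and 107, also below WT without overlap (-0.29, interval -0.45 to -0.13, limma adjusted p = 0.0547). IMD3 lay below WT there too (-0.27, limma adjusted p = 0.0986), and GUA1 did in R787G (-0.17, adjusted p = 0.705).

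In R787G against the empty vector 2 of the 6 rose (2.36% of all features were called), with a median of 0.35: IMD2 (24.4, 28.5 and 31.1 against 16.4, 17.4 and 16.7; 0.69, SE 0.14, limma adjusted p = 0.0369) and IMD4 (0.45, SE 0.10, adjusted p = 0.0397). No member was called in R787G against WT, where the median was -0.01, in G1242V against the empty vector or in R787G against G1242V. The IMD genes are near copies: 33.7% of the 50-base windows of IMD2, 16.6% of those of IMD3 and 7.24% of those of IMD4 occur elsewhere in the reference genome, so their separate levels are uncertain. For GUA1 this share was 0%. For IMD1, the other IMD gene on the list, at 1.19 to 4.07 scaled TPM, it was not computed. The list medians count these near copies as separate genes. The call of GUA1 was kept in 19 of 22 alternatives and ended without WT library 1, without library 3 labelled G1242V, and with library 2 as the only one of that group (log2 fold changes from -0.52 to -0.43 throughout). IMD3 kept its call in 12 of 22, IMD4 in 11 of 23 against WT and 10 of 23 against the empty vector, and IMD2 in 15 of 23. Over all features the 161 calls of the empty vector against WT went to 0 when any 1 library of WT, R787G library 1 or 2, or empty vector library 2 or 3 was left out. The difference between the ADE genes and the GMP branch was not tested.

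In the other neighbouring pathways the counts of calls are to be read beside 2.64% of all features called in the empty vector against WT and 4.58% in G1242V against WT; lists this short were not tested against that share. Of 14 genes of purine salvage and interconversion 1 fell in the empty vector against WT, APT1, adenine phosphoribosyltransferase (49.7 ± 4.64 in WT; -0.54, SE 0.11, limma adjusted p = 0.0491), and 1 in G1242V against WT, MEU1, methylthioadenosine phosphorylase (-0.29, SE 0.07, adjusted p = 0.0421). Among 5 PRPP synthetase genes PRS5 fell in G1242V against WT (-0.24, SE 0.06, limma adjusted p = 0.0393), and among 5 tested transporter genes FUN26, a nucleoside transporter, did (-0.25, SE 0.05, adjusted p = 0.0324). In one-carbon and folate metabolism, 16 genes, MET13, methylenetetrahydrofolate reductase, rose in the empty vector against WT (0.43, SE 0.09, limma adjusted p = 0.0491) and MIS1, the mitochondrial counterpart of ADE3, fell (-0.23, SE 0.05, adjusted p = 0.0491). Of 10 pyrimidine genes URA7, CTP synthase, and FUR1, uracil phosphoribosyltransferase, fell in G1242V against WT (-0.48, limma adjusted p = 0.0296, and -0.35, adjusted p = 0.0497). With library 2 as the only library of G1242V none of the calls against WT held, and the values were -0.24 for MEU1, -0.15 for PRS5, -0.21 for FUN26, -0.45 for URA7 and -0.24 for FUR1. In the comparisons not named for them, these 5 lists had no call. A call in 1 group does not set it apart from the other. In the empty vector against WT the log2 fold changes, uncalled, were -0.20 for MEU1, -0.19 for PRS5, -0.23 for FUN26, -0.39 for URA7 and -0.24 for FUR1. In G1242V against WT they were, also uncalled, -0.33 for APT1, -0.19 for MIS1 and 0.15 for MET13. The one-carbon list shares 5 genes with the other Bas1 and Pho2 targets. Calls were kept in 10 of 23 alternatives for APT1, 9 for MIS1 and 8 for MET13, and in 12 of 22 for MEU1, 14 for PRS5, 14 for FUN26, 16 for URA7 and 8 for FUR1. The list medians in the empty vector against WT were -0.07 for salvage, -0.11 for PRPP synthesis, 0.03 for uptake, -0.05 for one-carbon genes and -0.05 for pyrimidines.

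**Figure D4:**
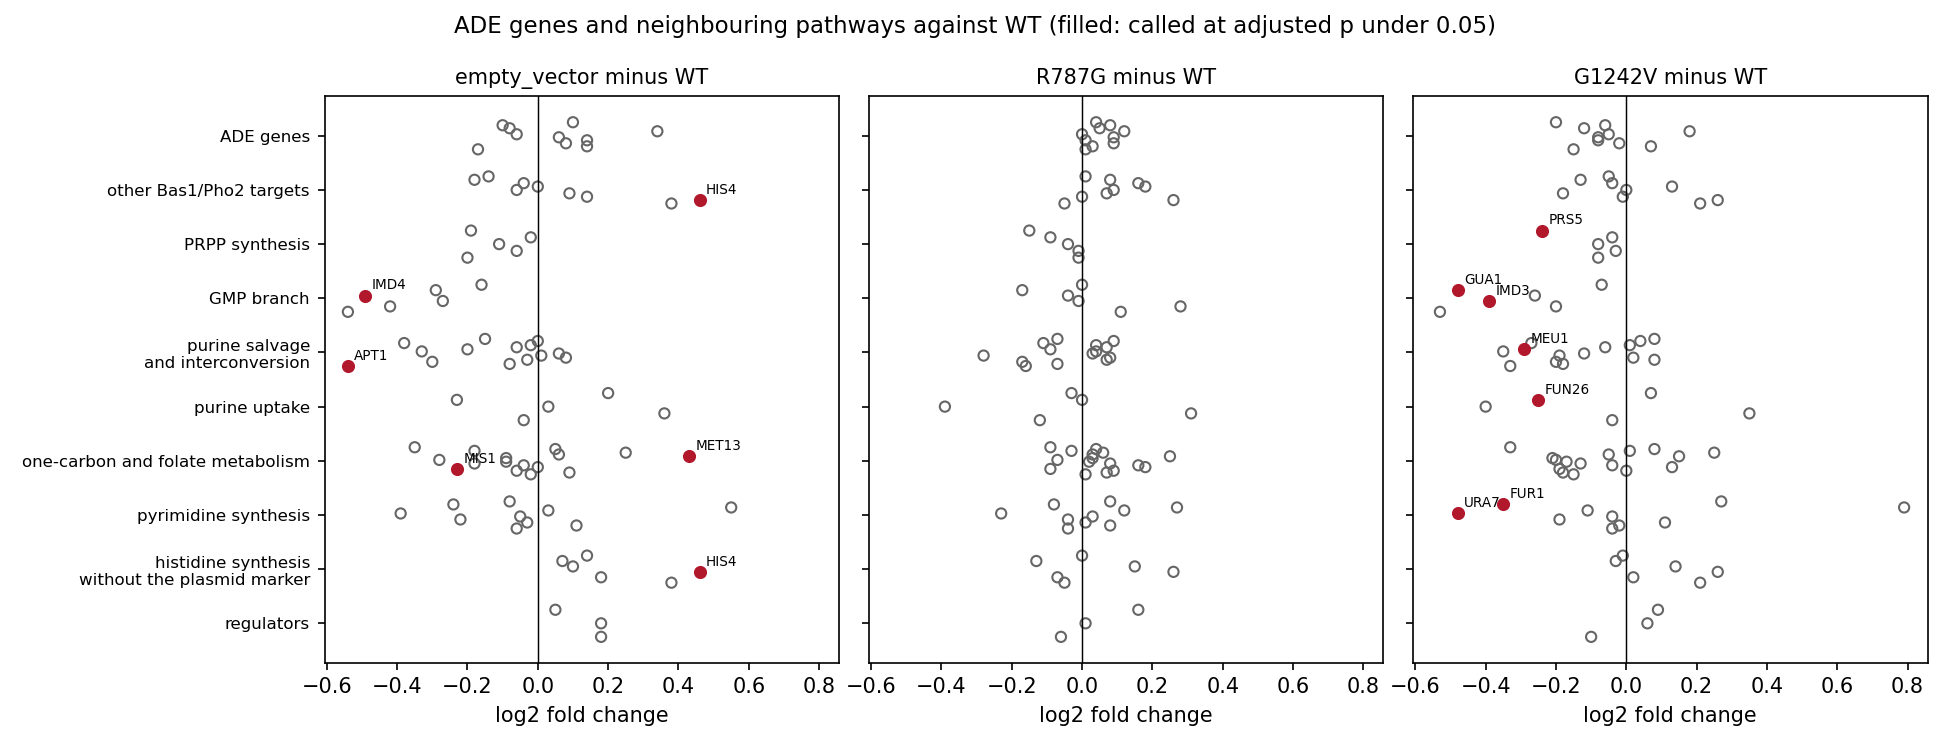
Log2 fold change against WT (x axis, the same in each panel) of the ADE genes and of the genes of neighbouring pathways (y axis); each point is 1 gene, filled where limma called it. The row of ADE genes has no filled point and spans -0.20 to 0.34 over the 3 panels, and IMD4 in the empty vector and GUA1 and IMD3 in G1242V are filled points to the left of 0.

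The 10 genes did not share 1 profile. Each gene was centred on its mean over the 12 libraries on the log2 scale, and 5 of the 10 (ADE1, ADE2, ADE3, ADE6 and ADE17) were closer to the mean profile of the other 9 than to a flat line. The mean profile was itself nearly flat, with a root-mean-square deviation of 0.0522, and ran from -0.11 in G1242V library 3 to 0.08 in empty vector library 3. By root-mean-square difference over the 12 libraries, the features most like it among 5411 were CDC11, a septin (0.0363), APL3, an adaptor subunit (0.0365), CCA1, the tRNA nucleotidyltransferase (0.0365), PIL1, of eisosomes (0.0401), and ILS1, the isoleucyl-tRNA synthetase (0.0405). Their own deviations from a flat line were also small: 0.0563, 0.0364, 0.0455, 0.0661 and 0.054 in that order. APL3 was thus no closer to the mean profile than to a flat line.

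For single genes the nearest pairs of features by the same measure were CDC28 and MIS1 for ADE4 (0.0491 and 0.0493), SNF11 and PRP40 for ADE8 (0.0448 and 0.047), HIP1 and LYS4 for ADE6 (0.0406 and 0.0413), MIG1 and SIS2 for ADE2 (0.0495 and 0.0506), and DHH1 and YCK2 for ADE1 (0.0758 and 0.0784). They were MUD2 and PRS2 for ADE13 (0.0312 and 0.0365), IDP1 and CEM1 for ADE17 (0.065 and 0.0677), INP53 and VAS1 for ADE16 (0.0313 and 0.0379), RPL1A and SNF4 for ADE12 (0.0492 and 0.0582), and TAX4 and BCY1 for ADE3 (0.045 and 0.0484). The points of such profiles share libraries and scaling.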

How the data were processed

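Per the labels' protocols, ribosomal RNA was depleted from total RNA and stranded libraries were read as 50 bp single reads. The authors deposited TPM, which the table's own name credits to RSEM. Beside RSEM, STAR, sacCer3 and bcl2fastq 2.17 stand in the submitters' processing notes, with no roles given; annotation and strand setting are not given in the sources used here. The table held 7036 features; 3 shifted by a comma in the symbol and 1 unnamed column were left out, which left 7033.

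TPM was divided by a median-of-ratios factor over 5421 features with a mean of 10 or more and no 0. Features whose mean reached 1 TPM, 6097 in all, entered limma 3.58.1 in R 4.3.3 as log2(scaled TPM + 1), with a variance trend and two-sided tests; the residual degrees of freedom were 8, and the prior added 3.2. Fold changes on this scale understate the change of low genes. P-values were Benjamini-Hochberg adjusted over all features of a comparison. With 3 libraries a group the smallest exact permutation p is 0.1, so none is given. Sequences and positions are from RefSeq R64; all 10 genes matched by locus tag. The 10 genes, the gene lists and the tests were chosen with earlier results of these data known; the named genes are the 10 members, called members of the lists, the regulators, the nearest profiles, and genes that check plasmid, mating type and RNA quality. Deviations of libraries with equal numbers correlated above 0.1 in all 3 pairs of WT and R787G (0.146 to 0.468), so the replicate block was applied to that comparison as a check and left 0 ADE genes called; in each of the other 5 comparisons at least 1 pair fell short, and the numbers were not taken to pair the libraries.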

Additional observations from a re-analysis of the deposited data

How the results depend on the processing

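Of 1360 values of single ADE genes under the alternatives (scaling, pseudocount, filter, variance trend, libraries in the fit, replicate block), 1312 kept direction and side of the threshold, 46 changed sign and 2 passed the threshold; the cause was not tested. The count of ADE genes called stayed at 0 in 5 of the 6 comparisons. In G1242V against WT it was 1 (ADE3) with only the 2 groups fitted, where 829 of all features were called. With 1 library left out it was 0 to 1 (1 without empty vector library 3, where 414 of all features were called).

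With TPM as deposited, the median of all features itself moved to 0.09 in the empty vector against WT, -0.15 in R787G and -0.11 in G1242V against the empty vector. The ADE medians were then 0.17 in the empty vector against WT, -0.01 in R787G against WT, -0.14 in R787G and -0.21 in G1242V against the empty vector, and 0.09 in R787G against G1242V. Signs turned in the empty vector against WT for ADE13 (0.04) and ADE16 (0.02). In R787G against WT they turned for ADE4 (-0.04), ADE8 (-0.03), ADE2 (-0.05), ADE13 (-0.05), ADE16 (-0.01) and ADE3 (-0.01). Against the empty vector they turned in R787G for ADE6 (-0.15), ADE1 (-0.13), ADE13 (-0.09) and ADE16 (-0.03), and in G1242V for ADE4 (-0.10), ADE13 (-0.11) and ADE12 (-0.08). Quantile normalization gave medians of 0.03 in R787G against WT and 0.10 in R787G against G1242V. It turned ADE13 in R787G against WT (-0.02), ADE6 in R787G against the empty vector (-0.01), and ADE13 (0.00) and ADE12 (-0.01) in G1242V against it. Without libraries 1 and 3 labelled G1242V the medians were -0.02 against WT and 0.09 in R787G against G1242V, and ADE13 turned in both (0.01 and -0.01).

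With 1 library left out, the ADE medians ran from 0.01 (without empty vector library 3) to 0.12 in the empty vector against WT, from 0.04 to 0.05 in R787G against WT, from -0.08 to -0.04 in G1242V against WT, from -0.06 to 0.06 in R787G against the empty vector, from -0.11 to -0.05 in G1242V against the empty vector, and from 0.10 to 0.14 in R787G against G1242V. Ranges that held a change of sign were -0.03 to 0.15 for ADE1 in the empty vector against WT and -0.06 to 0.03 for ADE6 in G1242V against WT. In R787G against WT they were -0.01 to 0.03 for ADE4, -0.04 to 0.08 for ADE8, -0.04 to 0.04 for ADE2, -0.02 to 0.18 for ADE1 and -0.02 to 0.03 for ADE13. In R787G against the empty vector they were -0.06 to 0.06 for ADE6, -0.08 to 0.12 for ADE1 and -0.11 to 0.01 for ADE3. In G1242V against the empty vector they were -0.02 to 0.08 for ADE4, -0.01 to 0.05 for ADE13, -0.08 to 0.01 for ADE16 and -0.05 to 0.11 for ADE12. In R787G against G1242V they were -0.12 to 0.00 for ADE8 and -0.14 to 0.01 for ADE17.

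With the replicate block the count of ADE genes called was 0 in each comparison and the medians were as without it (0.07 in the empty vector against WT). Fitting only WT and R787G with the replicate block, an alternative chosen after seeing the data, gave 0 ADE genes called, a median of 0.04 and 1 call over all features. In that pair of groups 4 of 6 libraries correlated best with their own number, and in the other comparisons 1 to 3 of 6. Under the block on all 12 libraries 5 of the 14 calls in neighbouring pathways were kept and 9 were not: HIS4, IMD4, APT1, MIS1 and MET13 in the empty vector against WT, IMD3, PRS5 and FUN26 in G1242V against WT, and IMD2 in R787G against the empty vector. Over all features, calls went from 161 to 0 in the empty vector against WT under the block, with no filter and with no variance trend, and from 144 to 68 in R787G against the empty vector under the block. In G1242V against WT, 279 calls became 57 with TPM as deposited, 829 with only the 2 groups fitted and 7 without libraries 1 and 3. With 1 library left out the counts ran from 0 to 403, 0 to 419 and 3 to 414 in these 3 comparisons. A group left with 1 library is assumed to vary like the others.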
